A study of Homo sapiens with 10 samples.

Results

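The genes described here are 43 genes of DNA replication and nucleotide supply, among them the MCM2-7 helicase, the replicative polymerases, the sliding clamp and its loader, and the enzymes that make deoxynucleotides. They were chosen by symbol, with earlier results of these data known. All 43 were found among the 20379 genes of the deposited expression table, and all 43 passed the filter on low values (a library mean of 1 FPKM or more), which left 12352 genes for testing. FPKM is the number of sequenced fragments scaled by transcript length and library size, so levels of different genes can be set side by side.

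RNA was sequenced in DBTRG-05MG and U87, established lines from human glioblastoma, after 0, 6, 12, 24 or 48 h with 1 mM dibutyryl cAMP, a form of cyclic AMP that enters cells. Each line and time gave 1 library, 10 in all, and the 0 h library of a line is its control. Dose and times are those of the sample labels, whereas the text for the series as a whole gives 1 mol/L and 3 days. Libraries kept for the same hours without dibutyryl cAMP were not analysed here, so the hours in culture and the treatment cannot be told apart. Each line stands for 1 tumour, and the poly(A) libraries were made from whole cultures. In such bulk RNA fewer cells in S phase and less of these transcripts per cell cannot be told apart.

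A cell copies its DNA once per cycle. ORC, CDC6 and CDT1 load the MCM helicase onto origins in G1, cyclin E with its kinase and the factors MCM10, CDC45 and GINS switch the helicase on at the start of S phase, and the polymerases, clamp and ligase then build the new strands. Ribonucleotide reductase, thymidylate synthase and thymidine kinase supply the building blocks. Most of these genes are known targets of E2F transcription factors and are transcribed before and during S phase, ahead of the genes of mitosis.

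Because the members are known to be transcribed together, their promoters were searched for the letters that E2F factors bind. RefSeq promoters on GRCh38.p14, each 250 bases before to 50 after a transcription start, were at hand for 36 of the 43 genes (47 promoters). One of TTTCCCGC, TTTCGCGC, TTTGCCGC and TTTGGCGC, read on both strands and with overlapping matches allowed, was present for 19 of the 36 genes (52.8%). Among the 8996 tested genes with a promoter of the same length the share was 6.8%, and among 39 mitosis genes it was 7.7%. The following stretches of 80 bases show such matches upstream of a helicase subunit, a second helicase subunit, the sliding clamp and the catalytic subunit of polymerase alpha. They run 5′ to 3′ on the strand of the gene, lie outside the exons of GENCODE release 29, and carry the matches in capitals.
MCM6 (chr2:135876519-135876598, minus strand, upstream of the start): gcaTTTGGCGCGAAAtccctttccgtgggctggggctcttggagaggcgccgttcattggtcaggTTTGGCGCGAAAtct
MCM3 (chr6:52284883-52284962, minus strand, positions -220 to -141 from the start): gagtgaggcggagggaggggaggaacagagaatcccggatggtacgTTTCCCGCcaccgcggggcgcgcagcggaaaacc
PCNA (chr20:5126643-5126722, minus strand, positions -100 to -21 from the start): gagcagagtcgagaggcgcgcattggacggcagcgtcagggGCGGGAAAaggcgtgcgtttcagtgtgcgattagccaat
POLA1 (chrX:24693738-24693817, plus strand, positions -180 to -101 from the start): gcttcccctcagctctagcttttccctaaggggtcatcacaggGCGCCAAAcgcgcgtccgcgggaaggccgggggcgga
In MCM6 a match on each strand overlaps at both places, which gives 4 matches, and the capitals in PCNA and POLA1 are matches on the opposite strand. Other motifs stood nearer to the share in tested genes. CCAAT was present for 55.6% of the 36 genes against 43.8% of tested genes and 79.5% of mitosis genes. The cyclic AMP response element TGACGTCA was present for 5.6% against 4.0%, its shorter form TGACG for 41.7% against 40.8%, and TTTGAA, the core of the cell cycle homology region, for 5.6% against 13.7% and 66.7% of mitosis genes. A match is a description of the letters and not of binding. Median GC content was 66.0% in the members' promoters and 64.7% in those of tested genes.

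In DBTRG-05MG the median member was near or above its 0 h level through 12 h, below it at 24 h and lower again at 48 h. Single members departed from this, such as PRIM1 at 62.6% of its start at 6 h and CCNE1 at 70.0% at 12 h. The median log2 change from 0 h, on the log2(FPKM + 1) scale, was 0.04, 0.21, -0.78 and -1.61 at 6, 12, 24 and 48 h. Over all tested genes it was -0.07, 0.00, 0.05 and 0.02. The highest level was at 12 h for 27 of the 43 members, against 17.7% of tested genes, at 6 h for 7 and at 0 h for 9. At 24 h all 43 were lower than at 12 h (42.7% of tested genes), and at 48 h all but SLBP were lower than at 24 h (54.5% of tested genes). The steepest step on the log2 scale lay between 12 and 24 h for 28 members (18.7% of tested genes), between 24 and 48 h for 14, and between 0 and 6 h for RPA3 alone.

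U87 took another course. Its members were lower at 6 h, close to the 0 h level at 24 h and lower at 48 h, with median log2 changes of -0.54, -0.33, -0.15 and -1.12. Over all tested genes the U87 medians were -0.01, -0.04, -0.15 and -0.15, so at 24 and 48 h the changes in U87 are read against a shift of -0.15. Relative to the median of all genes the members' medians in U87 were -0.53, -0.29, -0.00 and -0.97. The steepest step lay between 24 and 48 h for 28 members (26.1% of tested genes) and between 0 and 6 h for 10 (25% of tested genes). Lower at 24 h than at 12 h were 18 of 43 (59.7% of tested genes), and lower at 48 h than at 24 h were 40 (48.6%), the exceptions being RFC4, RPA3 and DUT.

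Counted as members below their own 0 h level, DBTRG-05MG had 18, 10, 42 and 43 of 43 at 6, 12, 24 and 48 h, where 60.8, 49.6, 45.1 and 47.7% of tested genes were lower. U87 had 41, 31, 31 and 41, where 51.1, 54.5, 62.9 and 63.5% of tested genes were lower. Counted below the median change of all genes, the U87 numbers were 41, 29, 22 and 40. At 24 h the U87 members as a set were thus level with other genes, at 12 h somewhat below them, and at 6 and 48 h nearly all lay below.

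**Figure D1:**
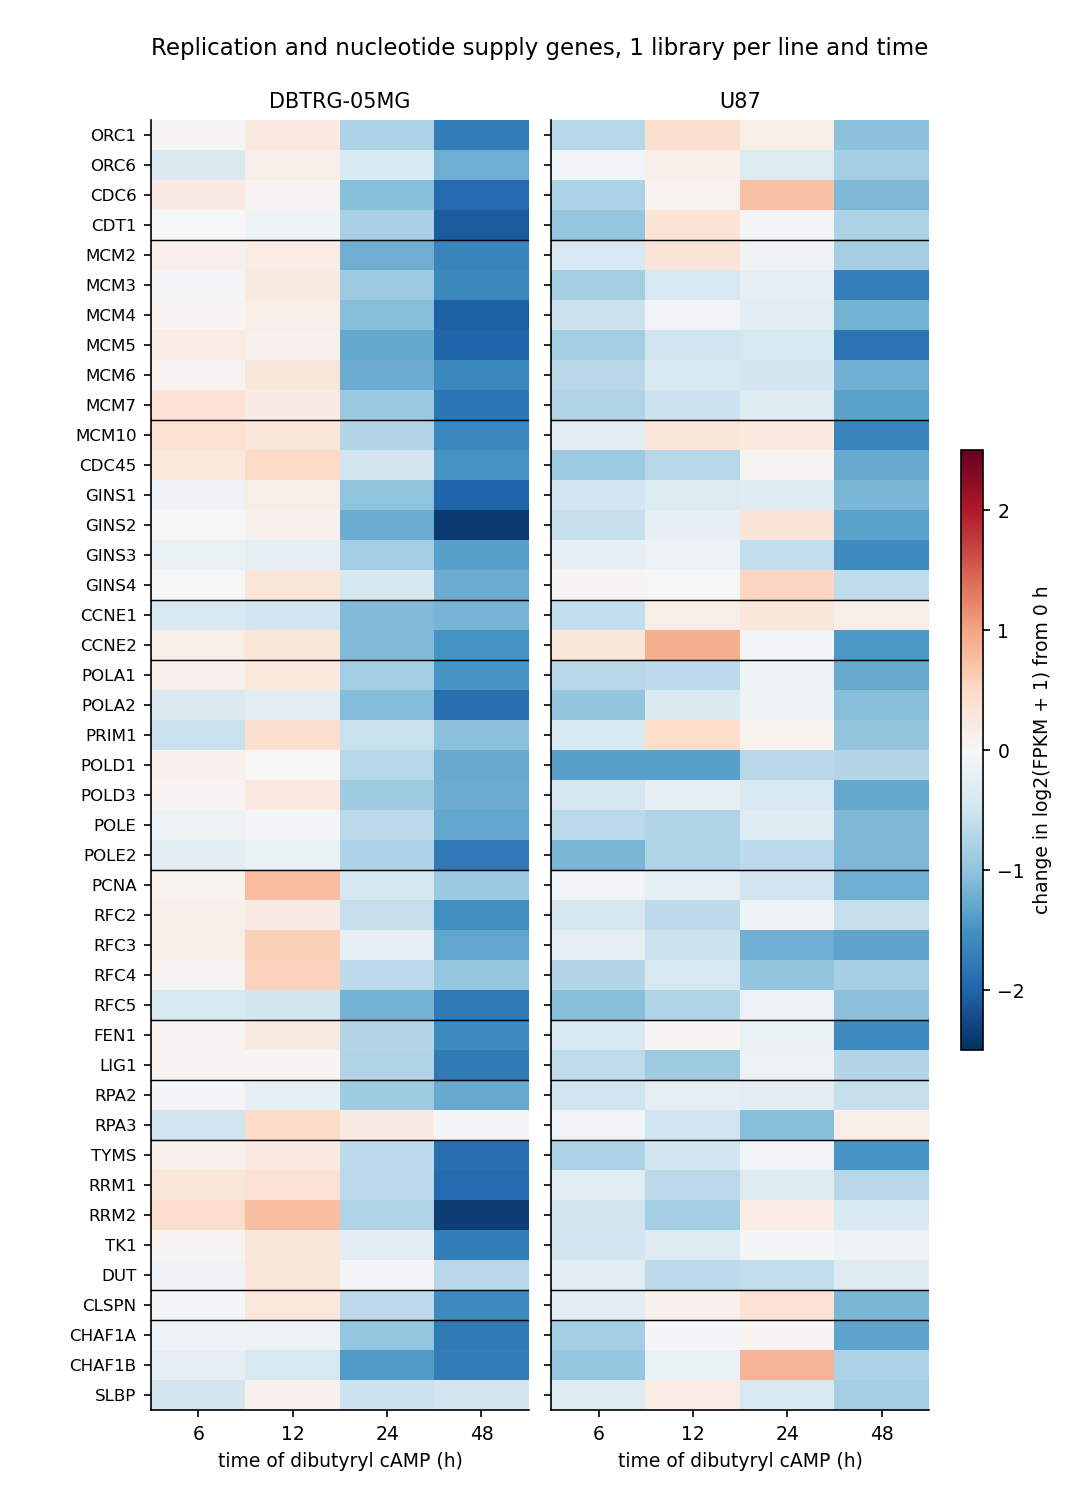
Change in log2(FPKM + 1) from the 0 h library of the same line for each of the 43 genes (rows, grouped by role with black lines between groups) at 6, 12, 24 and 48 h (columns), with blue for lower and red for higher. DBTRG-05MG is near white at 6 and 12 h and blue at 24 and 48 h, while U87 is pale blue at 6 h and blue mainly at 48 h.

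The time at which each gene reached 50% of its 0 h level, and stayed there to 48 h, separated the lines further. In DBTRG-05MG 15 members did so from 24 h: CDC6, MCM2, MCM4, MCM5, MCM6, GINS1, GINS2, both E cyclin genes, POLA1, POLA2, POLE2, RFC5, CHAF1A and CHAF1B. Another 24 did so at 48 h, and PCNA, RPA3, DUT and SLBP did not. In U87 RFC3 alone did so from 24 h, 25 did so at 48 h, and 17 did not. The level of 50% was a close boundary in DBTRG-05MG at 24 h, where CHAF1A (49.5%) and POLA1 (49.2%) were just under it and POLD3 (50.2%), MCM10 (51.0%) and GINS3 (52.1%) just over it.

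At single times, 0, 0, 15 and 39 of 43 members were at or below 50% in DBTRG-05MG at 6, 12, 24 and 48 h, against 3.44, 4.23, 3.75 and 7.84% of tested genes. U87 had 6, 1, 3 and 26, against 8.47, 7.43, 12.3 and 11.6%. The U87 members at 6 h were CDT1, POLA2, POLD1, POLE2, RFC5 and CHAF1B, the 1 at 12 h was POLD1, and the 3 at 24 h were RFC3, RFC4 and RPA3. At 24 h the U87 count of 3 was 1 after median centring and 7 at 66.7% of the 0 h level, and the DBTRG-05MG count of 15 was 34 at 66.7% and 26 at 50% of the highest level. At 48 h 25 members were at or below 50% in both lines (3.08% of tested genes). Of these 25, 12 got there earlier in DBTRG-05MG, 12 at the same sampled time and RFC3 earlier in U87. With 1 library per line and time these times carry no error of their own.

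The tests set the mean of both lines against their disagreement. Limma, with cell line as a block, called 0 members at any time against 0 h at an adjusted p under 0.05, and at 48 h it called 0 of all genes lower (0% of 12352). At an unadjusted p under 0.05 limma had 0, 0, 3 and 36 of 43 members lower at 6, 12, 24 and 48 h. The share of all tested genes was 3.33, 2.6, 1.94 and 8.53% at these times. The 3 members at 24 h were GINS3, RFC4 and MCM6, and the 7 outside the count at 48 h were CCNE1, POLD1, RPA3, RRM2, TK1, DUT and CHAF1B. The median of the 43 mean changes at 48 h was -1.36 against -0.07 for all tested genes. Without the DBTRG-05MG 48 h library the count at 48 h was 23.

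Between neighbouring times limma again called 0 members at an adjusted p under 0.05. Lower at an unadjusted p under 0.05 were 9 members at 24 h against 12 h (1.19% of tested genes) and 22 at 48 h against 24 h (4.11%). The first count was 1, 3 and 20 when the 12 h or 24 h library of DBTRG-05MG or the 24 h library of U87 was left out, 5 after median centring and 2 without the block, and the second was 6 and 3 without the DBTRG-05MG 48 h and U87 24 h libraries, 14 after median centring and 8 without the block.

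Within a line limma tested only the slope over the rank of time. In DBTRG-05MG 0 of 43 members had a falling slope at an adjusted p under 0.05, against 58 of all genes (0.47%), and 38 did at an unadjusted p (8.06% of tested genes). RPA2 had the smallest adjusted p of the 43 (limma adjusted p = 0.0528). With time in hours in place of its rank, 21 members passed the adjusted threshold, against 1.93% of tested genes. The unadjusted count of 38 was 2 without the DBTRG-05MG 48 h library and 24 on log2 hours. In U87 0 passed, and MCM5, GINS3, POLD3, PCNA and RFC3 had falling slopes at an unadjusted p under 0.05, 5 of 43 against 10.1% of tested genes, which is close to that share. Without single libraries the U87 count was 12 (U87 24 h), 11 (DBTRG-05MG 12 h), 8 (U87 6 h), 3 (U87 0 h or DBTRG-05MG 6 h) and 2 (U87 48 h), and it was 17 with time in hours and 2 after median centring or on log2 hours.

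Licensing genes came first in the order of replication. CDC6, the ATPase that brings the helicase to ORC, stood at 19.8, 22.8, 20.8, 8.94 and 4.39 FPKM in DBTRG-05MG in the order 0, 6, 12, 24 and 48 h, and at 18.3, 10.1, 19.4, 30.9 and 7.83 FPKM in U87. Its highest U87 level was thus at 24 h, when the DBTRG-05MG level was already under 50% of its start. The mean log2 change of CDC6 at 48 h was -1.54 ± 0.53 (SE of the fit, n = 2 lines, limma adjusted p = 0.291). ORC1, the largest ORC subunit, stood at 10.6, 10.8, 12.7, 5.72 and 2.50 FPKM in DBTRG-05MG and at 11.3, 6.51, 15.3, 12.5 and 5.02 FPKM in U87. Its mean log2 change was -1.38 ± 0.37 (SE, n = 2 lines, limma adjusted p = 0.188).

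CDT1, which loads the helicase with CDC6, stood at 17.6, 17.7, 16.3, 9.63 and 3.39 FPKM in DBTRG-05MG. In U87 CDT1 stood at 23.9, 11.8, 30.4, 23.3 and 13.3 FPKM, under 50% of the start at 6 h and above the start at 12 h. At 48 h CDT1 was at 19.3% of its 0 h level in DBTRG-05MG and at 55.6% in U87. ORC6, the smallest ORC subunit, was at 40.2 and 52.7%. All 4 licensing genes were lower at 6 h than at 0 h in U87 (51.1% of tested genes) and higher at 12 h (5413 of 12352). In DBTRG-05MG their median log2 change was 0.02 and 0.11 at those times.

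All 6 subunits of the helicase were lower at 48 h in both lines, as were 4445 of 12352 tested genes. MCM5 (chr22:35400063-35425430), part of the ring, stood at 47.2, 54.1, 51.2, 19.1 and 10.95 FPKM in DBTRG-05MG and at 86.3, 47.1, 60.6, 65.3 and 23.4 FPKM in U87. Each line was lowest at 48 h, at 23.2 and 27.1% of the start. MCM3 stood at 44.5, 43.6, 52.1, 23.4 and 13.8 FPKM in DBTRG-05MG and at 93.7, 51.3, 70.7, 79.5 and 28.1 FPKM in U87. MCM2 stood at 26.5, 28.7, 30.2, 10.7 and 7.74 FPKM in DBTRG-05MG and at 28.5, 21.2, 36.0, 26.7 and 15.3 FPKM in U87. It was the subunit with the highest share left in U87 at 48 h (53.8%), and 23.6% of its exon bases overlap other genes, whose reads cannot be told apart without strand.

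The mean log2 changes of MCM5, MCM3 and MCM2 at 48 h were -1.93 ± 0.40, -1.66 ± 0.34 and -1.25 ± 0.37 (SE, n = 2 lines), with limma adjusted p = 0.145, 0.145 and 0.216. MCM4, MCM6 and MCM7 were at 22.5, 28.1 and 27.7% of their start in DBTRG-05MG at 48 h and at 42.3, 42.1 and 38.6% in U87. As a group the 6 subunits had medians of -1.15 (DBTRG-05MG) and -0.30 (U87) on the log2 scale at 24 h, and of -1.73 and -1.27 at 48 h. The U87 median at 24 h is -0.15 relative to all genes. In DBTRG-05MG 4 of the 6 were at or below 50% at 24 h (3.75% of tested genes), and in U87 0 were (12.3%).

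**Figure D2:**
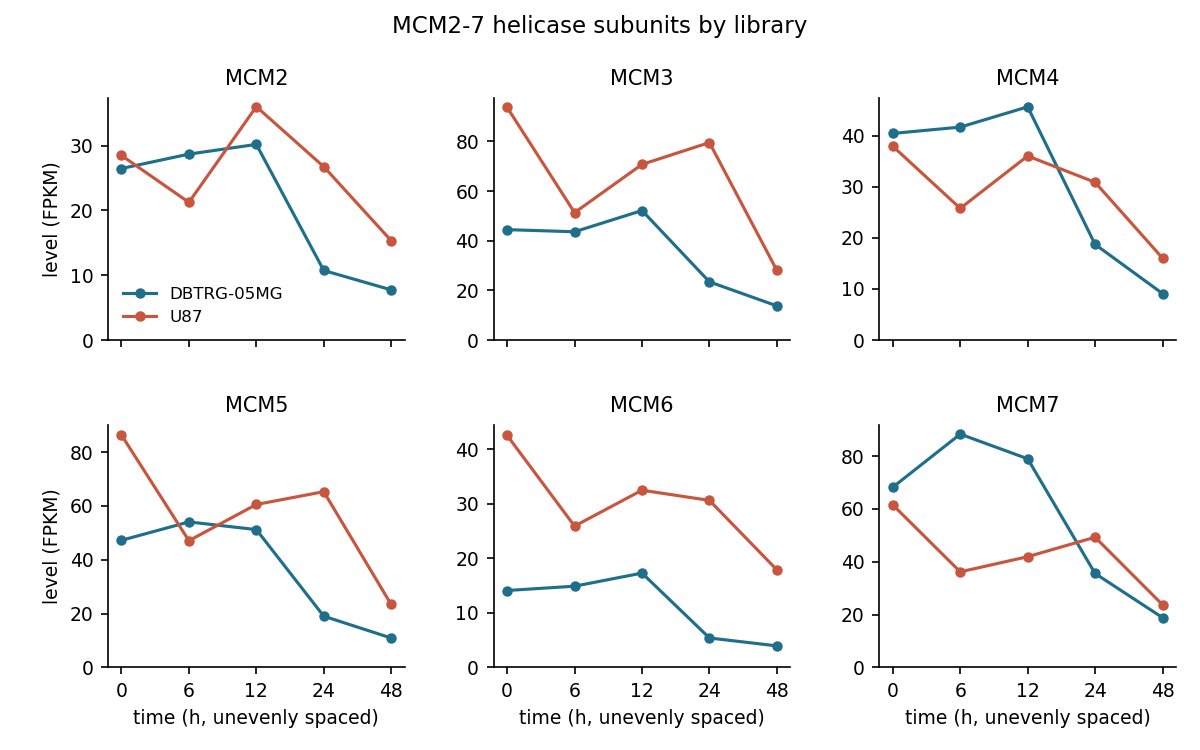
Level in FPKM (vertical axis, from 0) of the 6 MCM2-7 subunits in each library at 0, 6, 12, 24 and 48 h (horizontal axis, unevenly spaced times), with 1 point per library and 1 colour per line. In DBTRG-05MG all 6 are lower at 24 h than at 12 h, and in U87 all 6 are lower at 6 h than at 0 h and lowest at 48 h.

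Genes that switch the helicase on were lowest at 48 h in both lines. MCM10, which helps to turn the loaded rings into moving helicases, stood at 4.51, 6.15, 5.74, 2.30 and 0.766 FPKM in DBTRG-05MG and at 4.71, 3.73, 6.05, 5.73 and 0.815 FPKM in U87. The lines ended within a like share of the start, 17.0 and 17.3%. GINS3, of the 4-part GINS complex that travels with the helicase, stood at 11.2, 9.82, 9.40, 5.82 and 3.75 FPKM in DBTRG-05MG and at 10.03, 8.63, 9.03, 6.25 and 2.69 FPKM in U87. It was lower at 24 h and lowest at 48 h in both lines and had the smallest adjusted p of the 43 at 48 h, with a mean log2 change of -1.47 ± 0.22 (SE, n = 2 lines, limma adjusted p = 0.104).

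GINS4 stood at 6.75, 6.72, 8.59, 4.80 and 2.25 FPKM in DBTRG-05MG and at 20.9, 21.3, 20.9, 30.9 and 13.2 FPKM in U87. It was one of the 2 members not below their 0 h level in U87 at 6 h, the other being CCNE2, and its U87 level at 48 h was 63.0% of the start. Other genes overlap 23.6% of the exon bases of GINS4. GINS2 went furthest among the GINS genes in DBTRG-05MG, to 14.2% at 48 h against 37.1% in U87. CDC45, the helicase partner of GINS, was at 32.2 and 38.4%, and GINS1 at 16.6 and 32.0%. All 6 genes of this group were lower at 48 h in both lines (4445 of 12352 tested genes), with median log2 changes of -1.57 and -1.29.

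The E cyclins parted in U87. CCNE2 stood at 4.01, 4.55, 5.20, 1.34 and 0.775 FPKM in DBTRG-05MG and at 3.37, 4.32, 7.06, 3.20 and 0.608 FPKM in U87, where its 12 h level was 210% of the start and its 48 h level 18.1%. CCNE1 stood at 15.2, 11.2, 10.7, 6.53 and 6.24 FPKM in DBTRG-05MG and at 7.56, 4.56, 8.52, 9.46 and 8.62 FPKM in U87. It was therefore lower at every later time in DBTRG-05MG, and in U87 it was below its start at 6 h only. The slope of CCNE1 differed between the lines by 0.43 ± 0.12 log2 units per sampled time (SE, limma adjusted p = 0.272, unadjusted p = 0.00433). For CCNE2 37.1% of exon bases overlap other genes, INTS8 among them.

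Primase and polymerase genes were all lower at 48 h in both lines, 7 of 7, against 4445 of 12352 tested genes. POLA1, the catalytic subunit of polymerase alpha that starts each new strand, stood at 8.27, 8.98, 10.07, 4.06 and 2.35 FPKM in DBTRG-05MG and at 7.73, 4.35, 4.52, 7.12 and 2.65 FPKM in U87. In U87 it was low at 6 and 12 h, near its start at 24 h and low again at 48 h. POLD3, an accessory subunit of the lagging-strand polymerase delta, stood at 11.1, 11.4, 13.2, 5.54 and 4.10 FPKM in DBTRG-05MG and at 5.72, 4.03, 4.72, 4.14 and 1.79 FPKM in U87. Their mean log2 changes at 48 h were -1.36 ± 0.40 and -1.25 ± 0.28 (SE, n = 2 lines), with limma adjusted p = 0.214 and 0.153.

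POLD1, the catalytic subunit of polymerase delta, stood at 9.56, 10.4, 9.67, 5.44 and 3.41 FPKM in DBTRG-05MG and at 25.9, 9.49, 9.57, 15.6 and 15.3 FPKM in U87. In U87 it was at 36.6% of the start at 6 h, 36.9% at 12 h and 58.8% at 48 h, the highest share of the group at 48 h. POLE2, a subunit of the leading-strand polymerase epsilon, was also at 36.5% in U87 at 6 h. In DBTRG-05MG it was at 10.1% at 48 h, the lowest share of any member there. That share rests on low levels, 3.77 FPKM at 0 h and 0.38 FPKM at 48 h, and the log2(FPKM + 1) change was -1.79. POLA2, PRIM1 and POLE were at 25.1, 40.2 and 36.5% in DBTRG-05MG at 48 h and at 45.7, 42.0 and 42.4% in U87. Other genes overlap 35.1% of the exon bases of POLA2 and 21.6% of those of PRIM1.

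The clamp loader reached low levels at different times in the 2 lines. RFC3, a small subunit of the loader that opens the clamp, stood at 7.40, 8.47, 11.7, 6.17 and 2.43 FPKM in DBTRG-05MG and at 12.75, 10.7, 8.50, 4.96 and 4.56 FPKM in U87. Each U87 level was lower than the one before, while RFC3 was above its start through 12 h in DBTRG-05MG. RFC5 stood at 24.6, 18.2, 17.7, 10.2 and 6.53 FPKM in DBTRG-05MG and at 23.0, 10.45, 13.2, 20.7 and 10.6 FPKM in U87. RFC2 stood at 47.4, 52.1, 54.5, 31.0 and 15.6 FPKM in DBTRG-05MG and at 31.5, 23.1, 19.7, 29.1 and 20.55 FPKM in U87.

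At 48 h the mean log2 changes of RFC3, RFC5 and RFC2 were -1.30 ± 0.33, -1.41 ± 0.39 and -1.07 ± 0.40 (SE, n = 2 lines), with limma adjusted p = 0.184, 0.198 and 0.329. PCNA, the clamp itself, stood at 41.4, 43.9, 71.5, 30.3 and 21.5 FPKM in DBTRG-05MG and at 28.8, 27.4, 24.4, 20.1 and 11.8 FPKM in U87. The DBTRG-05MG level at 12 h was 173% of the start, the highest share of any member at that time in that line, and each U87 level of PCNA was lower than the one before. RFC4 was at 48.1% in DBTRG-05MG and 54.0% in U87 at 48 h.

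Of the genes that join the fragments of the lagging strand, FEN1, the flap nuclease, stood at 29.3, 30.8, 34.3, 17.2 and 9.11 FPKM in DBTRG-05MG and at 20.5, 15.6, 20.9, 18.3 and 6.16 FPKM in U87. The 48 h change was -1.58 in each line and the mean had an SE of 0.26 (n = 2 lines, limma adjusted p = 0.119). LIG1, the ligase that seals the nicks, stood at 17.2, 18.1, 17.6, 9.72 and 4.32 FPKM in DBTRG-05MG and at 10.9, 6.63, 5.48, 9.73 and 6.11 FPKM in U87. Its lowest U87 level was at 12 h and not at 48 h.

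The single-strand binding protein RPA gave an exception. RPA2 stood at 36.9, 35.6, 31.8, 19.6 and 14.9 FPKM in DBTRG-05MG and at 45.8, 32.1, 38.4, 37.4 and 30.5 FPKM in U87. RPA3, its smallest subunit, stood at 8.20, 5.51, 11.9, 9.67 and 7.88 FPKM in DBTRG-05MG and at 11.5, 10.9, 7.83, 4.95 and 12.9 FPKM in U87. It was at 96.1 and 113% of its start at 48 h and was the 1 member above its start in DBTRG-05MG at 24 h. The mean log2 change of RPA3 at 48 h was 0.05 ± 0.41 (SE, n = 2 lines, limma adjusted p = 0.965), and its sign turned without the DBTRG-05MG 0 h or the U87 48 h library.

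Nucleotide supply was the role whose medians lay furthest apart between the lines at 48 h. TYMS, thymidylate synthase, stood at 17.5, 18.9, 20.9, 10.6 and 3.94 FPKM in DBTRG-05MG and at 21.2, 11.9, 14.9, 20.1 and 7.02 FPKM in U87, and was low at 48 h in both. RRM1, the large subunit of ribonucleotide reductase, stood at 28.7, 35.5, 37.0, 17.5 and 6.65 FPKM in DBTRG-05MG and at 83.6, 68.9, 52.1, 66.2 and 51.3 FPKM in U87. TK1, the thymidine kinase of S phase, stood at 46.1, 48.2, 56.4, 38.1 and 13.2 FPKM in DBTRG-05MG and at 55.2, 39.5, 43.6, 54.5 and 50.6 FPKM in U87. RRM1 and TK1 thus ended at 23.2 and 28.6% of the start in DBTRG-05MG and at 61.4 and 91.7% in U87.

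RRM2, the small subunit that limits the reductase in S phase, stood at 93.98, 127, 160, 55.0 and 17.7 FPKM in DBTRG-05MG and at 114, 82.6, 63.5, 130.1 and 86.9 FPKM in U87. It was the member with the second lowest log2 change in DBTRG-05MG at 48 h, -2.35 after -2.39 for GINS2, and at -0.39 it was among the members nearest to their start in U87. DUT, which keeps uracil out of DNA, was at 60.5 and 79.9%. The median log2 change of the 5 supply genes at 48 h was -1.91 in DBTRG-05MG and -0.39 in U87, or -0.24 relative to all genes there, and the change of TK1 in U87, -0.12, is above 0 when set against the shift of -0.15. By limma the slope was higher in U87 at an unadjusted p under 0.05 for CCNE1, RPA2 and TK1 (3 of 43, against 3.1% of tested genes). It was lower in U87 for 0 members, against 1278 of 12352 tested genes. Limma called 0 members in either direction at an adjusted p under 0.05.

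The mean log2 changes of TYMS, RRM1 and TK1 at 48 h were -1.69 ± 0.38, -1.32 ± 0.46 and -0.93 ± 0.46 (SE, n = 2 lines), with limma adjusted p = 0.152, 0.291 and 0.458. Without strand information reads of TYMS cannot be told apart from those of ENOSF1 and TYMSOS, which overlap 46.6% of its exon bases, and 20.2% of those of RRM2 are shared with another annotated gene. The count of 3 higher slopes in U87 was 15 without the DBTRG-05MG 0 h and 9 without the U87 0 h library. It was 14 without the U87 48 h and 5 without the DBTRG-05MG 12 h library. It was 1 when a 6 h library of either line, or that of DBTRG-05MG at 48 h, was left out, and 12 after median centring.

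**Figure D3:**
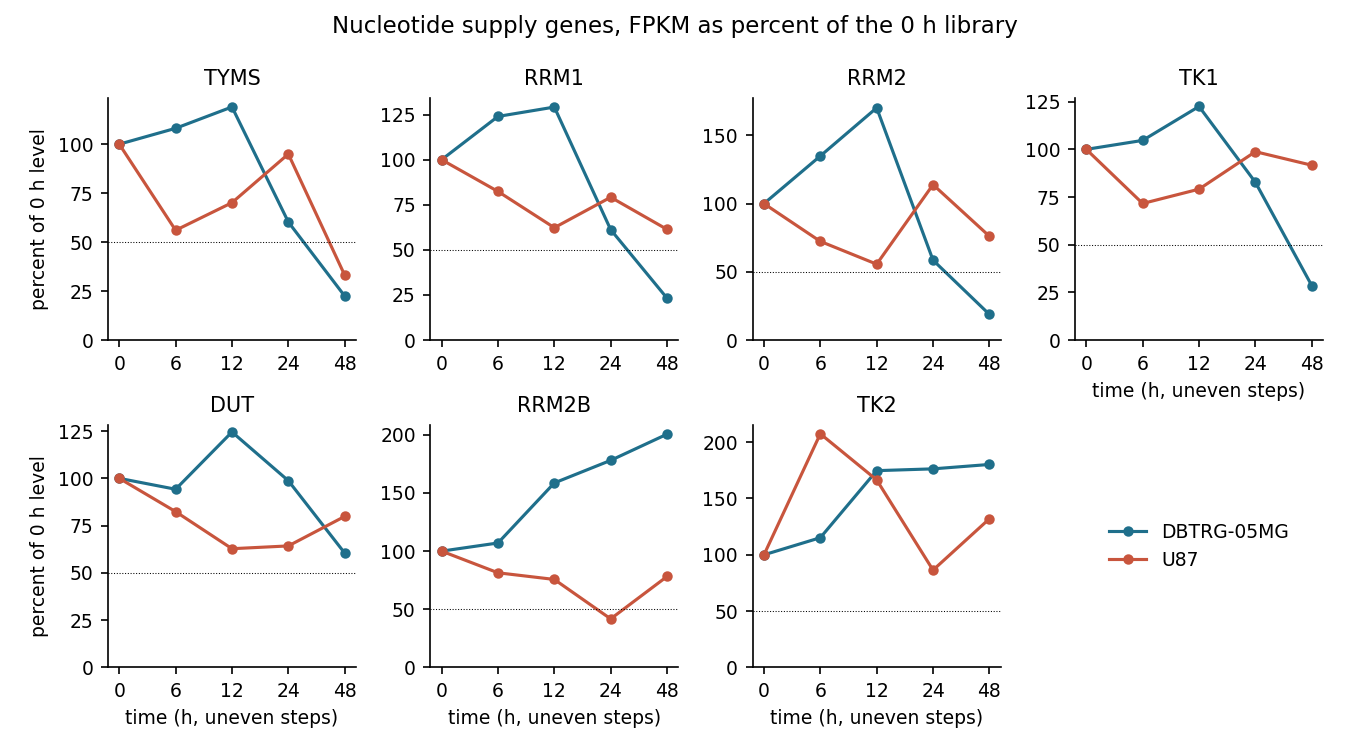
FPKM as a percent of the 0 h library of the same line (vertical axes, each from 0, dotted line at 50%) for the 5 nucleotide supply genes and for RRM2B and TK2, at 0, 6, 12, 24 and 48 h (horizontal axis, uneven steps), with 1 point per library. RRM1, RRM2 and TK1 end at 23.2, 18.8 and 28.6% in DBTRG-05MG and at 61.4, 76.1 and 91.7% in U87, while RRM2B ends at 200.5% in DBTRG-05MG.

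Among the chromatin and checkpoint partners of the fork, CHAF1A and CLSPN were under 50% of their start at 48 h in both lines, CHAF1B in DBTRG-05MG only and SLBP in neither. CHAF1A, the large subunit of the factor that places histones on new DNA, stood at 28.4, 26.5, 26.2, 14.1 and 7.64 FPKM in DBTRG-05MG and at 23.1, 12.5, 22.8, 23.95 and 8.66 FPKM in U87. CHAF1B, of the same factor, stood at 25.9, 21.8, 19.3, 9.13 and 7.09 FPKM in DBTRG-05MG and at 12.5, 5.93, 11.1, 23.2 and 6.72 FPKM in U87. At 24 h CHAF1B was at 35.3% of the start in DBTRG-05MG and at 186% in U87, the widest gap of any member at that time.

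CLSPN, the adaptor between the fork and the checkpoint kinase CHK1, stood at 5.08, 4.85, 6.32, 2.87 and 1.02 FPKM in DBTRG-05MG and at 4.85, 3.89, 5.31, 6.55 and 1.66 FPKM in U87. SLBP, which binds the stem-loop of histone mRNAs, stood at 66.7, 48.6, 72.0, 45.9 and 48.7 FPKM in DBTRG-05MG and at 40.0, 31.4, 45.5, 29.8 and 21.4 FPKM in U87. It was among the least affected members in DBTRG-05MG, at 73.0% at 48 h, and at 53.6% in U87. The mean log2 changes at 48 h were -1.54 ± 0.36 for CHAF1A, -1.27 ± 0.57 for CHAF1B, -1.36 ± 0.32 for CLSPN and -0.66 ± 0.22 for SLBP (SE, n = 2 lines), with limma adjusted p = 0.159, 0.412, 0.168 and 0.272.

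**Figure D4:**
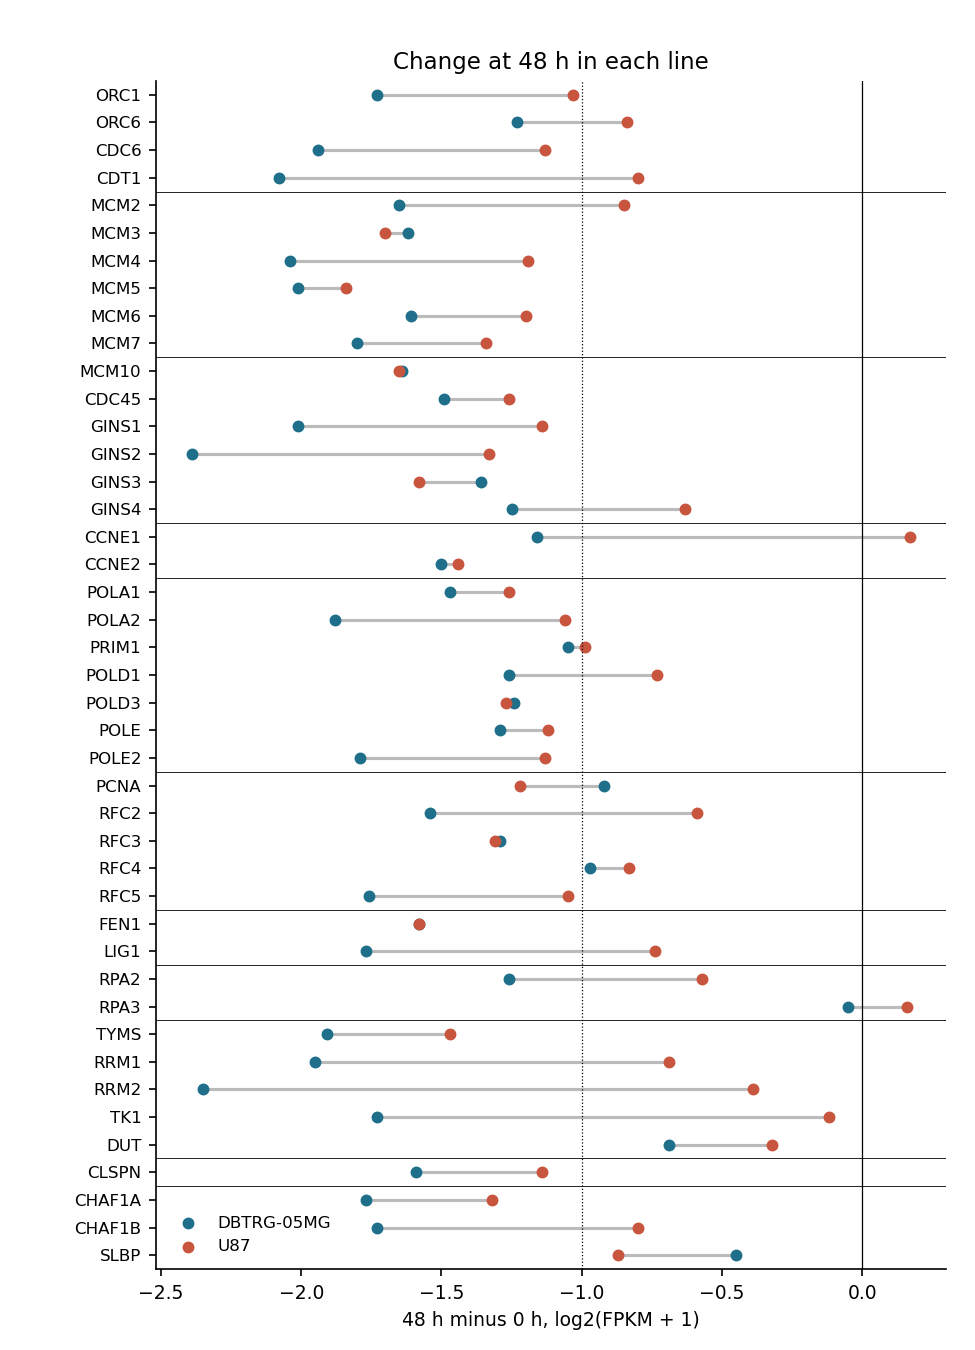
Change in log2(FPKM + 1) from 0 to 48 h (horizontal axis) for each of the 43 genes (rows, grouped by role), with 1 point per line joined by a grey bar and a dotted line at -1. The points of FEN1, MCM10, RFC3 and POLD3 nearly meet, and those of RRM2, TK1, CCNE1, CDT1 and RRM1 lie furthest apart.

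Below their start at 6 h were 41 members in U87 (51.1% of tested genes) and 18 in DBTRG-05MG (60.8%). In both lines 17 of 43 were, against 4322 of 12352 tested genes. In U87 32 members were lower at 6 h than at both 0 and 12 h (28.5% of tested genes), and in DBTRG-05MG 12 were (39.6%). The U87 minus DBTRG-05MG difference at 6 h, set against its size at the other times, was below 0 for 37 members. Its median was -0.85 against 0.17 for all genes. This comparison was chosen with an earlier result on the 6 h direction of these genes known, so its sign was not a new result. Limma called 0 members at an adjusted p under 0.05, and at an unadjusted p it had 4 lower, ORC1, CDC6, CDT1 and CHAF1A (1.18% of tested genes). Median changes of the members from 0 h were -0.54 in U87 and 0.04 in DBTRG-05MG at 6 h. At 12 h they were -0.33 and 0.21, so the lines did not lie apart at 6 h alone. The baseline of the test comes from the libraries of the other times, and the 6 h difference from the 6 h libraries, 1 of each line. That of U87 had a relative depth of 116.9% of the first library against 107.1 to 115.6% in the other U87 libraries and 4491 genes at 0 against 4446 to 5106, where a listed value of 0.002 was read as 0. That of DBTRG-05MG had a relative depth of 102.7% and 3555 genes at 0. The part of these values in the result was not tested. The count of 4 was 18 without a 12 h library of either line, 8 without a 0 h library, 1 without a 48 h library, 6 after median centring and 2 with no filter.

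At 24 h the same comparison, chosen after the 24 h levels were seen, gave the opposite sign. It sets 24 h against times that include 6 h, and the 6 h comparison was set against times that include 24 h. A low difference at 6 h thus raises that at 24 h, and the opposite sign is not a separate result. The difference was above 0 for 39 members, with a median of 0.78 against -0.18 for all genes. Limma called 0 at an adjusted p under 0.05, and 8 were higher at an unadjusted p, CDC6, MCM3, MCM5, MCM10, GINS2, CLSPN, CHAF1A and CHAF1B (2.85% of tested genes). CHAF1B had the largest difference, 2.14 ± 0.56 log2 units (SE, limma adjusted p = 0.529). The count of 8 was 24 without a 48 h library of either line, 4 without a 12 h library, 5 without a 6 h library or with no filter, and 14 after median centring.

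Mitosis genes, 45 of them tested, had other time courses in each line. The median log2 change of the 45 in DBTRG-05MG was -0.11, 0.26, -0.12 and -1.79 at 6, 12, 24 and 48 h, so at 24 h they stood near the start while the replication genes were at -0.78. At or below 50% were 1 of the 45 at 24 h (3.75% of tested genes) and 44 at 48 h (7.84%). In U87 their median was -0.40, -1.03, -0.57 and -1.12. At 12 h 29 of the 45 were at or below 50% in U87, against 1 of the 43 replication genes and 7.43% of tested genes. The difference between the 2 sets was not tested.

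CDCA8, of the chromosomal passenger complex, stood at 21.3, 21.1, 23.5, 15.3 and 4.29 FPKM in DBTRG-05MG and at 30.5, 36.2, 20.55, 25.4 and 7.49 FPKM in U87. BUB1B, a spindle checkpoint kinase, stood at 23.7, 19.0, 22.9, 14.2 and 4.06 FPKM in DBTRG-05MG and at 32.2, 16.45, 13.6, 21.7 and 8.11 FPKM in U87. Both were lowest at 48 h in each line. CDC25B, a phosphatase that activates cyclin-dependent kinases, was the 1 mitosis gene above its start at 48 h in both lines, at 109 and 105%. By limma 36 of the 45 were lower at 48 h at an unadjusted p under 0.05, against 8.53% of tested genes, and 0 at an adjusted p.

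**Figure D5:**
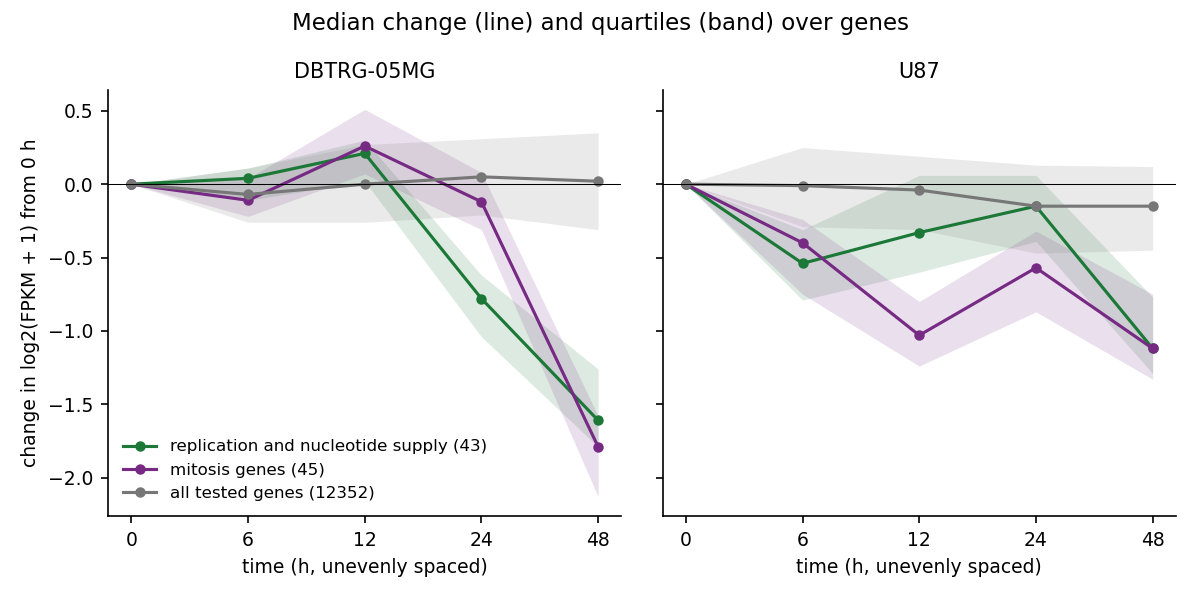
Median (line) and quartiles (band) of the change in log2(FPKM + 1) from 0 h over the 43 replication and nucleotide supply genes, 45 mitosis genes and 12352 tested genes, by time in each line (horizontal axis, unevenly spaced times). In DBTRG-05MG the replication genes are at -0.78 and the mitosis genes at -0.12 at 24 h, and in U87 the mitosis genes are lowest before 48 h at 12 h, at -1.03.

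Other replication genes, 42 that are not among the 43, had medians of -0.04, 0.07 and -0.37 (log2) at 6, 12 and 24 h in DBTRG-05MG and of -0.41, -0.49 and -0.40 in U87. The difference from the 43 was not tested. At 48 h the median change in DBTRG-05MG was -0.96 and that in U87 -0.76 (log2). At or below 50% were 23 and 20 of the 42, against 7.84 and 11.6% of tested genes. Lower at an unadjusted p under 0.05 by limma were 27 of 42, against 8.53% of tested genes, and 0 at an adjusted p. DBF4, the activator of the origin-firing kinase CDC7, stood at 17.8, 14.9, 14.7, 12.4 and 3.95 FPKM in DBTRG-05MG and at 10.9, 6.96, 4.40, 5.28 and 2.60 FPKM in U87. Its mean log2 change at 48 h was -1.83 ± 0.29 (SE, n = 2 lines, limma adjusted p = 0.108). ASF1B, a histone chaperone, was at 21.6 and 37.8% at 48 h, and CCNA2, the S phase cyclin, at 16.3 and 49.1%. POLD4, a small subunit of polymerase delta, was above its start at 48 h, at 132 and 114%.

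Of 30 tested genes of other nucleotide synthesis steps, 8 were lower at 48 h at an unadjusted p under 0.05 by limma, against 8.53% of tested genes, and 0 at an adjusted p, with a median of -0.28 (log2) in DBTRG-05MG and of -0.45 in U87. PFAS, of purine synthesis, was at 44.96 and 38.8% of its start, and CAD, of pyrimidine synthesis, at 52.6 and 56.8%. GUK1, guanylate kinase, was at 116 and 132%. MTHFD2, a mitochondrial folate enzyme, stood at 23.3, 45.8, 62.9, 73.8 and 48.5 FPKM in DBTRG-05MG and at 31.3, 35.8, 29.7, 18.2 and 38.1 FPKM in U87. It was above its start at every later time in DBTRG-05MG and below it at 12 and 24 h in U87.

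The nucleotide enzymes that work outside S phase and for mitochondrial DNA, 7 genes, had a median at 48 h of 0.06 (log2) in DBTRG-05MG and of -0.13 in U87. RRM2B, the reductase subunit used by resting cells, stood at 13.0, 13.9, 20.6, 23.1 and 26.0 FPKM in DBTRG-05MG and at 10.1, 8.24, 7.66, 4.23 and 7.91 FPKM in U87. In DBTRG-05MG RRM2B and RRM2 were both above their start at 6 and 12 h, and at 24 and 48 h RRM2B was above and RRM2 below. TK2, the mitochondrial thymidine kinase, stood at 4.32, 4.97, 7.54, 7.61 and 7.78 FPKM in DBTRG-05MG and at 5.79, 12.0, 9.64, 5.01 and 7.64 FPKM in U87. SAMHD1, which breaks down deoxynucleotides, was at 60.5 and 63.7% at 48 h, and was the 1 of the 7 lower at an unadjusted p under 0.05 by limma (adjusted p = 0.359), against 8.53% of tested genes. TFAM, which packs mitochondrial DNA, was at 79.0 and 33.9%.

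Among 24 tested regulators of these genes, 11 were lower at 48 h at an unadjusted p under 0.05 by limma, against 8.53% of tested genes, and 0 at an adjusted p. E2F1, an activator of S phase genes, stood at 24.97, 28.3, 24.8, 11.3 and 8.06 FPKM in DBTRG-05MG and at 33.9, 23.7, 28.2, 48.6 and 24.5 FPKM in U87. Its level was lower at 24 h than at 12 h in DBTRG-05MG and higher in U87, as was that of E2F2, which stood at 37.0% of its start in DBTRG-05MG at 24 h and at 139% in U87. E2F8, a repressor of the family, was at 23.7 and 24.8% at 48 h. CCND1, cyclin D1, was at 44.7 and 42.95% at 48 h.

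CDKN1A, which encodes the inhibitor p21, stood at 293, 271, 253, 350 and 438 FPKM in DBTRG-05MG and at 140.1, 58.6, 61.5, 225 and 400 FPKM in U87. In U87 it was under 50% of its start at 6 and 12 h and at 285% at 48 h, a mean log2 change over both lines of 1.04 ± 0.46 (SE, n = 2 lines, limma adjusted p = 0.411). CDKN1B, which encodes p27, was at 128 and 131% at 48 h.

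Members with and without E2F letters overlapped in their 48 h levels. In DBTRG-05MG the 19 genes with a match had a median of 27.7% of the start at 48 h (range 10.1 to 60.5%), and the 17 without had 31.1% (17.0 to 73.0%). In U87 the medians were 38.6% (26.8 to 79.9%) and 53.6% (17.3 to 114%). The difference between these medians was not tested.

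Of the libraries as a whole, total FPKM ran from 405316 to 422531 in DBTRG-05MG and from 460111 to 487281 in U87. Relative depth ran from 100 to 116.9% of the first library, which held about 9.8 M fragments by an estimate from 339 genes (quartiles 9.3 and 10.5). The non-coding RNA BCYRN1 took 0.578 to 3.37% of total FPKM in DBTRG-05MG and 7.38 to 13.31% in U87. In DBTRG-05MG its share was 3.10% at 6 h and 0.578% at 12 h. On a list of 10 glioma line markers 7 reached 1 FPKM in at least 1 DBTRG-05MG library and 6 did in U87. VIM, NES, CD44 and EGFR did so in both lines. SOX2 reached 22.96 to 36.57 FPKM in DBTRG-05MG and was listed at 0 in all U87 libraries, CHI3L1 reached 1 FPKM in DBTRG-05MG only and OLIG2 in U87 only. The astrocyte markers GFAP and S100B stayed below 1 FPKM in all 10 libraries. Of 12 markers of other cell types 10 stayed below 1 FPKM in both lines, the exceptions being CD68 and MBP, and the sum of the 12 ran from 74.47 to 123.2 FPKM in the DBTRG-05MG libraries and between 328.0 and 647.0 in those of U87. Their part in the results was not tested. A free-text field of the U87 libraries names DBTRG, while their title, source and cell line fields name U87, which was used here.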

How the data were processed

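Poly(A) RNA of 10 libraries was sequenced. The authors deposited 1 table with a value per gene and library, read as FPKM (fragments normalized to transcript length and library size) from the values, since no header names the unit. The authors' steps before the FPKM values were deposited are not given in full in the sources used here: HISAT, Bowtie2, RSEM and the build hg38 are named, per the submitters' processing notes, with no roles. Library sizes are not given, so depth was estimated from the steps of low values.

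From these FPKM values log2(FPKM + 1) was computed, and genes whose library mean reached 1 FPKM were kept. Limma 3.58.1 in R 4.3.3, with moderated variances that follow the mean level, fitted time as a factor with the line as block, a slope per line over the rank of time, and the first of these with a term for 1 U87 library. P-values were adjusted over all 12352 genes by Benjamini and Hochberg. Each group holds 1 library, so errors come from the disagreement of the lines or the scatter about a slope and not from replicates. Pairing is by cell line, and 717 genes differed at least 4-fold between the lines at all times. The fits were tested on simulated data.

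The 43 members and all lists were chosen with earlier results of these data known. In each role, full values are given for the 2 members with the largest 48 h change in the line that changed less and the 1 with the smallest, for both E cyclins and for up to 10 members that differed between the lines in trend or at 6 h. From each other list the 2 genes with the largest such change in each direction are named, plus RRM2B, TK2, CCNA2, E2F1, CDKN1A and CCND1. Any other gene was singled out after its values were seen. The listed genes of the other sets numbered 42 (other replication), 31 (other nucleotide synthesis), 7 (outside S phase and mitochondrial), 46 (mitosis) and 26 (regulators). Median log2 changes at 48 h over both lines were -0.89, -0.36, -0.02, -1.50 and -0.64. Exon overlap used GENCODE release 29. The alternatives were another pseudocount, no filter, median centring, other time scales, no block, other levels for the time of fall and leaving out each library.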

Additional observations from a re-analysis of the deposited data

How the results depend on the processing

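With time in hours 21 members had a trend in DBTRG-05MG at an adjusted p under 0.05 by limma, against 0 on the rank of time. On the rank of time, leaving out each library in turn gave 0 to 4. The count with time in hours was not repeated with libraries left out. The count of members lower at 48 h at an unadjusted p, 36, was 23 to 39 when each library was left out, with 23 without the DBTRG-05MG 48 h library. Without the pairing by line (no replicate block) it was 25. The median change at 48 h, -1.36, was -1.06 without the DBTRG-05MG 48 h library, -1.61 without the U87 48 h library and -1.51 with a pseudocount of 0.1. The number of members low at 24 h in DBTRG-05MG, 15, was 34 at 66.7% of the 0 h level and 26 at 50% of the highest level. In U87 the number at 24 h, 3, was 7 at 66.7% and 1 after median centring. The 48 h change of RPA3, 0.05, was -0.15 without the DBTRG-05MG 0 h library and ran from -0.28 without the U87 48 h to 0.39 without the DBTRG-05MG 48 h library. The causes were not tested. With 1 library per line and time, and an estimated depth, low genes such as MCM10, CCNE2 and, in DBTRG-05MG, POLE2 at 48 h are the least precise.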
